A study of Mus musculus with 12 samples.

Results

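The RNA pulled down with tagged ribosomes from cultured adult mouse sensory neurons was profiled by abundance. The profile rests on the 3 deposited columns of the control-virus pulldown, out of 12 columns in the series, which were summed and expressed as CPM, counts scaled to a total of 1000000. A count stands for 1 sequenced cDNA, as estimated per gene. Of 15391 genes in the table, 15320 had at least 1 count in this sum, and they were ranked by it. No other group was used.

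The series measured RNA in cultures of adult dorsal root ganglion neurons from mice of genotype RPL22HA+/+;Advillin-Cre+. All groups shared that genotype and were preconditioned, meaning that the sciatic nerve was injured before culture. The group described here received the control adeno-associated virus, and its RNA came from immunoprecipitation (IP) with an antibody against HA. The labels give cultured neurons as the source, while their protocol mentions freshly taken ganglia. How many animals or cultures were pooled is not stated there.

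In RiboTag mice, Cre recombination swaps the end of Rpl22 for a version with an HA tag, so that ribosomes of Cre-expressing cells can be pulled down together with the mRNA they carry. Advillin is active in most sensory neurons of the ganglion, which include peptidergic and non-peptidergic nociceptors, itch receptors, touch receptors and proprioceptors. A nerve injury before culture switches these neurons into a growth state, with injury-induced transcription factors such as Atf3 and Jun and effectors such as Sprr1a and Gap43. Messenger RNAs of ribosomal proteins and elongation factors usually begin with a cytosine followed by a run of pyrimidines, the terminal oligopyrimidine (TOP) tract, through which their translation is regulated. A pulldown can also carry RNA that is not on tagged ribosomes, and how much of the profile that is was not tested. In bulk RNA, fewer cells of a type and less RNA per cell cannot be told apart.

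The 3 columns held 3127135, 3128368 and 3126591 counts, 9382094 in all, with 14999 to 15034 genes detected in each. They differed by about the sampling noise. Among 10084 genes with at least 30 counts, 7.62% had a chi-square p under 0.05 between columns, and the median chi-square was 1.47. Since no label ties them to different animals or cultures, the columns were counted as 1 sample, so that n = 1 throughout and no replicate error can be given. Values carry exact (Clopper-Pearson) 95% intervals for counting error only, since PCR copies without molecular identifiers are not independent molecules. At 1000 CPM the interval runs from 980 to 1020, at 10 CPM from 8.10 to 12.3, and at 1 CPM from 0.439 to 1.82. For a gene without counts, the level of 3 counts, 0.320 CPM, was taken as the limit, which is one-sided and lower than the upper end of the exact interval at 0 counts. Levels are compared between genes as read counts, where 1 nanopore read is 1 cDNA. They were not divided by transcript length, because no lengths were in the reference used here. What part transcript length plays in the order of genes was not tested.

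The counts were concentrated in few genes, and those were mostly parts of the ribosome and the respiratory chain. Ribosomal protein genes took 21.1% of all counts (95% interval 21.08% to 21.13%) and nuclear genes of oxidative phosphorylation 10.1% (10.06% to 10.10%). Together these lists held 31.2% of the counts in 201 entries, and 61 of the 100 most abundant genes. A sum of 10% of the counts was reached by 13 genes, 25% by 52 genes, 50% by 193 genes, 75% by 692 genes and 90% by 2372 genes. The other end of the ranking was long and thin: the 8391 genes from rank 7001 downwards shared 2.31% of the counts. The median gene had 55 counts, or 5.86 CPM.

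**Figure D1:**
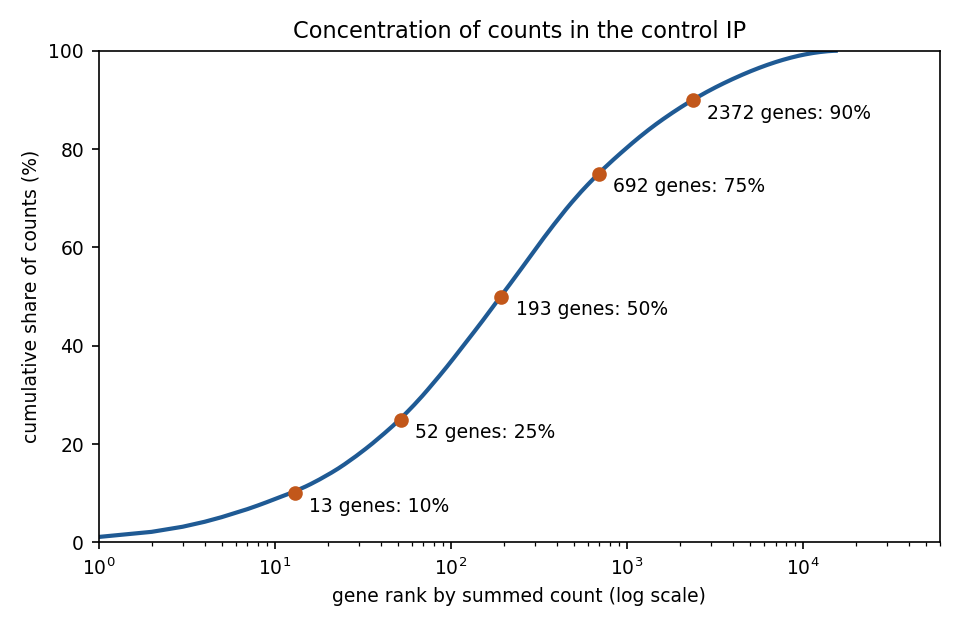
Cumulative share of counts (y axis, percent) against gene rank on a log scale (x axis) in the summed control IP. Orange points mark the number of genes that hold 10%, 25%, 50%, 75% and 90% of the counts: 13, 52, 193, 692 and 2372 genes.

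By level, 208 genes lay at 1000 CPM or more and held 51.7% of the counts, and 1243 genes at 100 CPM or more held 83.1%. The 5811 genes at 10 CPM or more held 96.7%, and the 13769 at 1 CPM or more held 99.9%. Only 71 of the table's genes had no count.

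The most abundant protein-coding gene was Rpl38, a large-subunit ribosomal protein, with 32290, 32599 and 32481 counts in the 3 columns (10378 CPM, 10314 to 10443). Rps29 of the small subunit followed with 31831, 31107 and 31856 counts (10104 CPM). Lgals1, which encodes galectin-1, a carbohydrate-binding protein of sensory neurons, held 29463, 29498 and 29492 counts (9428 CPM, 9366 to 9490). It was the highest protein-coding gene outside the ribosomal lists. Then came Rpl35 (8815 CPM) and S100a10 (7500 CPM), the S100 protein that pairs with annexin A2. Rpl37a (7273 CPM), Rpl37 (6760 CPM) and Tmsb10 (6395 CPM), a thymosin that binds actin monomers, completed the first 10 together with 2 genes described further below, Gm17494 and Gm10076.

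Ranks 11 to 30 were filled by the same kinds of gene. Ribosomal proteins there were Rps19 (5584 CPM), Rplp1 (4995), Rpl35a (4894), Rps23 (4862), Rps26 (4516), Rpl26 (4322), Rps25 (4293), Rpl32 (4157) and Rpl23a (3939), among others. The respiratory chain was present with Usmg5 (5001 CPM), a small ATP synthase subunit, Cox6c (4764), Cox6b1 (4390), Ndufa4 (4314) and Cox7c (3976). Tmsb4x, the second thymosin (5108 CPM), Hspa8, the constitutive heat shock protein of the cytosol (4702), and S100a6, a calcium-binding protein (4308), also stood in this stretch, beside Rps27rt and a gene without a symbol. In the top 30, 13 of 29 neighbouring pairs had overlapping intervals, so the order among close ranks is not resolved even by counting error alone. Rps26 and Rps27rt, for example, were separated, while Cox6b1 and Rpl26 were not.

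Among the 200 most abundant genes, the columns differed most in Ppia and Gm17494, by chi-square. Ppia, the abundant prolyl isomerase cyclophilin A, had 6654, 8280 and 8656 counts, so that its highest column was 1.30 times its lowest. Gm17494 had 36091, 34459 and 33898 counts, a ratio of 1.06. For both genes the first column stood apart from the others, low for Ppia and high for Gm17494.

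Messenger RNA made up most of the counted reads. These are shares of a cDNA-PCR library and not of all pulled-down RNA. No gene was typed as cytosolic ribosomal RNA, and how well the library captured each RNA type was not tested. Protein-coding genes held 83.2% of the counts (12248 genes), and 91 of the 100 most abundant genes were of this type. Genes without a symbol took 8.61% (1680 genes), named genes whose type the RefSeq table does not give took 2.88% (516 genes), and long non-coding RNAs took 2.76% (802 genes). Annotated pseudogenes took 1.88% with 100 genes. The mitochondrial genome added 0.401% as mRNA, 0.183% as tRNA and 0.126% as rRNA. Small RNAs were rarely read: Mir6236, the only miRNA gene listed, had 144, 114 and 147 counts, the 2 snoRNAs 20 counts in all and the 2 Y RNAs 37.

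The long non-coding RNAs were led by Gm40271 with 9662, 9584 and 9462 counts (3060 CPM), which overlaps the pseudogene Rpl36-ps3. Next came Gas5 (1472 CPM) and Zfas1 (1048 CPM), both host RNAs of small nucleolar RNAs with a TOP start, with Gm4419 (1179 CPM) between them and D830032E09Rik (886 CPM) after them. The 16 snoRNA host RNAs together held 0.409% of the counts, and Gas5 was the first of them. Neuronal, nuclear and imprinted long non-coding RNAs ranged widely. Ftx, a non-coding gene of the X inactivation centre, had 867 CPM (848 to 886) and Pvt1 396 CPM. Malat1, a nuclear RNA, had 118, 102 and 143 counts (38.7 CPM), Neat1 7.78 CPM and Meg3, an imprinted RNA of neurons, 3.73 CPM. Bc1, a neuronal RNA found in dendrites and axons, had 57.8 CPM.

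Pseudogenes were led by Gm10076, the second gene of the whole ranking, with 32678, 32440 and 32447 counts (10399 CPM, 10334 to 10464). Its interval overlapped that of Rpl38. Rps13-ps1 followed with 2113 CPM, then Gm11808 (1165), Gm20768 (914) and Rpl10-ps3 (771). Among genes whose type the RefSeq table lacks, Gm17494 led with 11133 CPM (11066 to 11200) and was the highest gene of the profile, followed by Gm15862 (1771), Gm44442 (1586), Gm12279 (1023) and AC112949.1 (999). A table of counts per gene does not separate the reads of near-identical copies, overlapping genes or antisense genes, so these levels, and those of the ribosomal genes they may resemble, are uncertain.

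**Figure D2:**
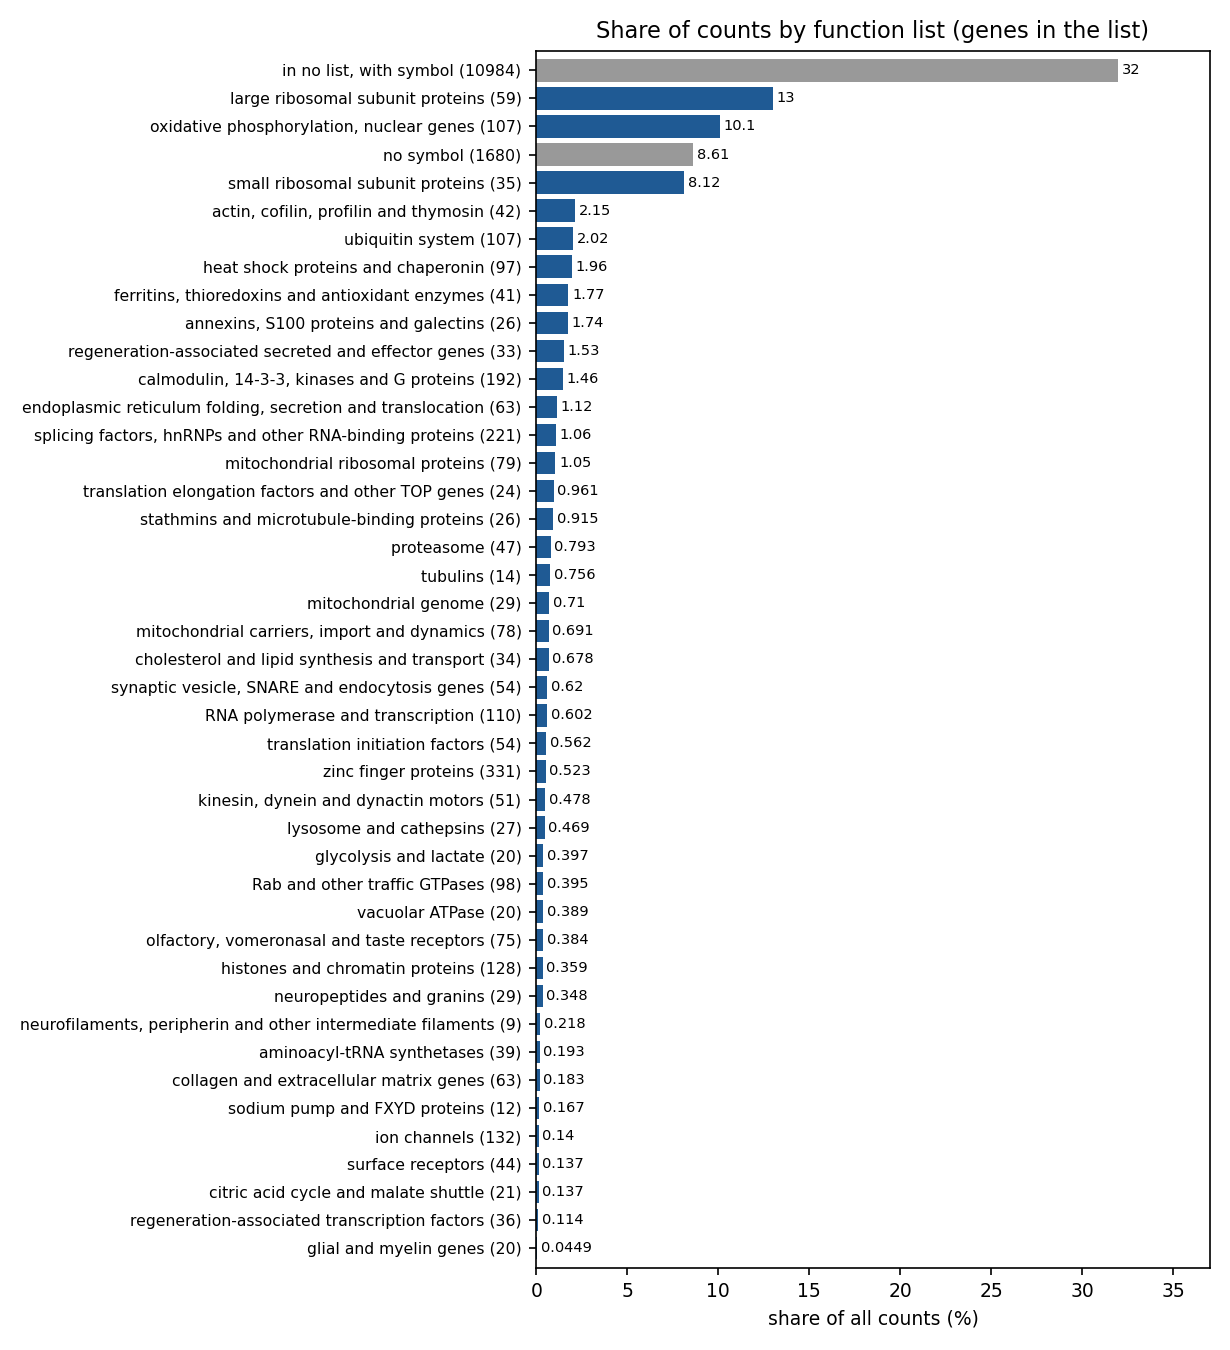
Share of all counts (x axis, percent) for each function list, with the number of genes in parentheses; each gene is in 1 list only and grey bars are genes in no list or without a symbol. Ribosomal proteins (12.98% and 8.12%) and nuclear oxidative phosphorylation (10.1%) stand above every other list, of which the next, the actin group, holds 2.15%.

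The lists were drawn up by symbol, so some entries are regulators, antisense RNAs or pseudogenes named after a family. The function lists held 59.4% of the counts in 2727 genes, and the genes in no list that have a symbol held 31.98% in 10984 genes. Within the first 100 ranks were 28 large-subunit and 17 small-subunit ribosomal proteins, 16 oxidative phosphorylation genes, and 3 each of the actin group and of the S100 and annexin group. A further 19 of the 100 were in no list.

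Nearly every ribosomal protein gene was highly read, but not at one level, although each protein is present once or a few times in a ribosome. The large subunit held 12.98% of the counts and the small subunit 8.12%. Setting aside 8 entries named as pseudogenes, all in the large-subunit list and part of its share, the 51 large-subunit genes had a median of 2119 CPM (quartiles 954 and 3315), and 37 of them lay at 1000 CPM or more. The 35 small-subunit genes had a median of 1963 CPM (quartiles 1136 and 2912), with 26 at 1000 CPM or more. The small-subunit list held no entry with a pseudogene name, since Rps13-ps1 and Rps6-ps4 are outside the lists, but it includes Rps4l, which RefSeq types as a pseudogene. The coefficient of variation over genes was 86.9% for the large and 83.7% for the small subunit. The 5 highest genes made up 29.8% of the large-subunit and 36.1% of the small-subunit counts.

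At the upper end of the small subunit stood Rps29, then Rps19 (17410, 17447 and 17532 counts), Rps23 and Rps26. At the lower end of the family stood Rpl36 with 70, 55 and 77 counts (21.5 CPM, 18.7 to 24.7), Rps4l (69.8 CPM), Rps27 with 295, 298 and 304 counts (95.6 CPM), Rpl7l1 (160 CPM), Rps2 (192 CPM) and Rack1 (263 CPM), a scaffold protein of the small subunit. Rpl4 (356 CPM), Rpl3 (364 CPM) and Rpl5 (395 CPM) were also low for the family. Rpl3l, the paralog of Rpl3 known from striated muscle, had 2 counts in all. The columns of Rps19 and Rps27 lay close together, and those of Rpl36 were spread more widely at its low count.

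**Figure D3:**
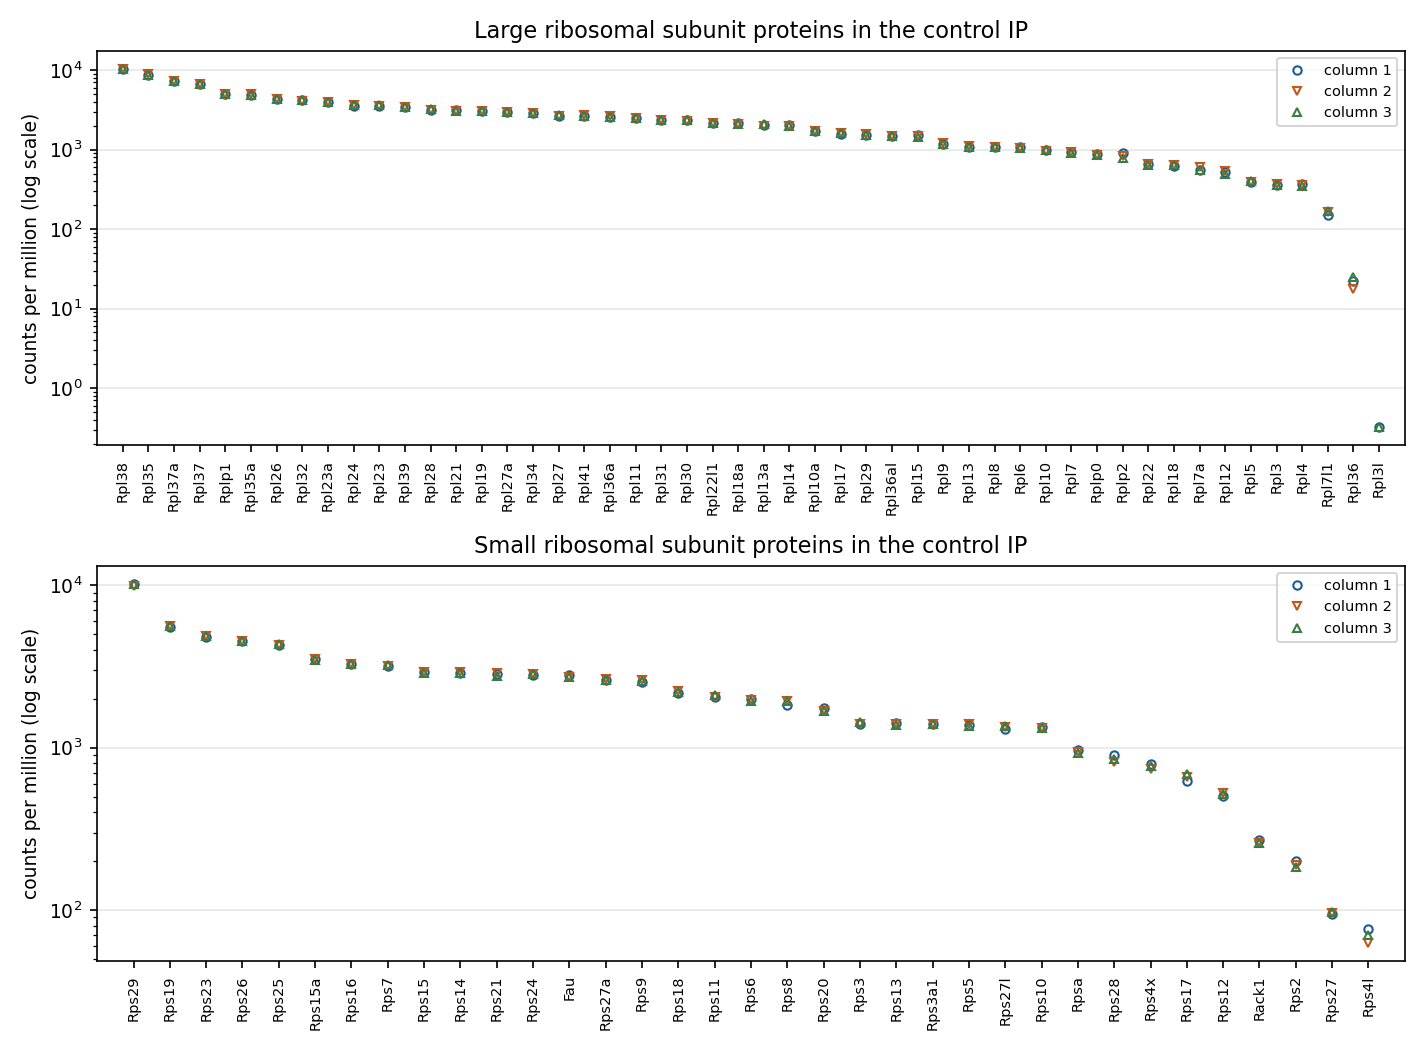
Level of ribosomal protein genes with Rpl, Rps and related symbols and a count, large subunit above and small subunit below, in CPM on a log scale (y axis) with genes ordered by level (x axis); circles, downward and upward triangles are the 3 columns. The symbols of most genes nearly coincide, while genes run from Rpl38 at 10378 to Rpl3l at 0.213 in the large subunit and from Rps29 at 10104 to Rps4l at 69.8 in the small one.

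Some low members had a highly read partner of like sequence or position. Rps27rt, a retrotransposed copy of Rps27 that no list held, had 13662, 13630 and 13988 counts (4400 CPM), 46.0 times Rps27 (43.1 to 49.2), and Rps27l, the paralog, was 13.99 times Rps27. Gm40271, which overlaps Rpl36-ps3, was 142 times Rpl36 (124 to 164). Wdr89, which overlaps Rplp2-ps1, had 3931 CPM, 4.66 times Rplp2 (843 CPM). Of 185 genes in the top 300 that are outside the ribosomal lists and placed in the RefSeq table, Wdr89 and Gm40271 were the 2 that overlap a ribosomal protein gene or pseudogene. How reads were shared between such partners was not tested.

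Rpl22 itself, the tagged protein of the RiboTag allele, had 2075, 2040 and 2022 counts (654 CPM, 638 to 671), below the median of its subunit. Its paralog Rpl22l1, which can take its place in the ribosome, had 6776, 6813 and 6774 counts (2170 CPM), 3.32 times as many (3.22 to 3.41).

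To show the first bases of ribosomal messages with and without a TOP-like tract, the following lines give 25 bases around the RefSeq start, 10 before it and 15 from it, on the coding strand of assembly GRCm38.p6. Capitals mark a C at the first base with the pyrimidines that follow it, where there are at least 4. The first 7 are the most abundant ribosomal protein mRNAs that have a listed start, and of these Rpl38 and Rpl35 hold the tract. The next lines, from Rps15a to Tuba1a, were chosen because they hold it, and Tmsb4x and Sncg are abundant mRNAs without it.
Rpl38: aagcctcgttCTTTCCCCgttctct
Rpl35: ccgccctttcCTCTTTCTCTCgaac
Rpl37a: ctcgccggtctaaaaccgcgcatgc
Rpl37: cctgggcggaagcttatccacagga
Rps19: aatctcgcgagactcgacgcccgac
Rpl35a: gcgtgcgtcccacaaggccgcgcgg
Rps23: cggctgggcggggcttcccgcaatg
Rps15a: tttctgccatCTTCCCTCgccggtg
Rpl28: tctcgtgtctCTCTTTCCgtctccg
Fau: gcccccacttCTTCCTCTTTCTTga
Rps18: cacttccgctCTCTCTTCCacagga
Tuba1a: agaagcaacaCCTCCTCCTCgcctc
Tmsb4x: tacgagtgacatcacctcatttgca
Sncg: tcatctgcgtcaataagaggcagta

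These windows lie at chr11:114668570-114668594 (Rpl38, plus strand), chr2:39005117-39005141 (Rpl35, minus), chr1:72711250-72711274 (Rpl37a, plus), chr15:5116603-5116627 (Rpl37, plus), chr7:24884582-24884606 (Rps19, plus), chr16:33056443-33056467 (Rpl35a, plus) and chr13:90923112-90923136 (Rps23, plus). Those of the others are chr7:118116133-118116157 (Rps15a, minus), chr7:4792955-4792979 (Rpl28, plus), chr19:6057937-6057961 (Fau, plus), chr17:33955651-33955675 (Rps18, minus), chr15:98953487-98953511 (Tuba1a, minus), chrX:167209204-167209228 (Tmsb4x, minus) and chr14:34374655-34374679 (Sncg, minus). Each spans the upstream edge and the first bases of the 5' untranslated region of its gene.

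A C followed by at least 4 bases that are each C or T stood at the first base of 14 of 64 ribosomal protein genes with a listed start (21.9%). Over all 27025 genes with a start the share was 2.49%. Among the 73 of the 100 most abundant mRNAs that have a start, 11 held the tract (15.1%), and of the 38 of these outside the ribosomal lists only 2, Tuba1a and Rps27rt. The share was 2.33% at mRNA ranks 101 to 1000, 2.29% at ranks 1001 to 5000 and 2.09% below, so beyond the first 100 it lay slightly under that of all genes. Of 83 oxidative phosphorylation genes, 3 held it (3.61%). Allowing the tract within 5 bases of the listed start gave 46.9% of ribosomal protein genes and 18.5% of all genes. Rps19, known as a TOP message, had no tract at its listed start, and whether neurons begin this mRNA at that base was not tested.

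Translation factors, many of them TOP mRNAs, took far less of the pulldown than the ribosome. The list of elongation factors and other TOP genes held 0.961% of the counts in 24 entries, with a median of 204 CPM, and includes host RNAs such as Gas5 and Zfas1. Naca, which binds nascent chains, had 1276 CPM, and Eef1b2, the exchange factor of elongation factor 1, had 1005 CPM. Eef1a1, which brings tRNA to the ribosome, had 2338, 2444 and 2330 counts (758 CPM), 4.24 times its neuronal and muscle isoform Eef1a2. The 54 initiation factor genes held 0.562%, led by Eif1, which guards start-codon choice (1863 CPM), before Eif5a (489), Eif1b (484) and Eif2s2 (340). The 79 entries of mitochondrial ribosomal proteins held 1.05%, from Mrpl33 (875 CPM) to Mrps2 (3.94), with Mrps21 (676), Mrpl52 (602) and Mrps33 (494) next to the top. The 39 aminoacyl-tRNA synthetases held 0.193%, with Kars (430 CPM), the lysyl enzyme, highest.

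The nuclear mRNAs of oxidative phosphorylation formed the second large group, with 107 genes, 75 of them among the first 1000. Complex I, which oxidises NADH, held 3.26% of the counts in 38 genes, and the ATP synthase 2.71% in 18 genes. Complex IV, cytochrome c oxidase, held 2.67% in 15 genes and complex III 0.759% in 9. The complex I list was drawn up by symbol and includes Ndufa4, which is now assigned to complex IV. The order of the shares of complexes I and IV depends on where Ndufa4 is placed, and they were not recomputed with it moved. Complex II, which is also an enzyme of the citric acid cycle, held 0.0407% in 4 genes. Its highest member Sdhb had 289 CPM, while Sdha, Sdhc and Sdhd had 45.5, 37.2 and 34.3 CPM.

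Within each complex the levels spanned a wide range, although the subunits meet in fixed numbers in the enzyme. In the complex I list, Ndufa4, which bears a complex I name but is assigned to complex IV, had 13640, 13456 and 13378 counts. The core subunit Ndufs1 had 87, 104 and 75 (28.4 CPM). The ratio of 152 between them is thus not one within complex I. Other core subunits at the low end were Ndufs3 (59.4 CPM) and Ndufv1 (66.6 CPM), whereas Ndufb1-ps (2381), Ndufa2 (2222) and Ndufa3 (2154), all accessory subunits or named as such, lay high. In complex III the small subunits Uqcrq (2104 CPM), Uqcr10 (1625), Uqcr11 (1409), Uqcrh (1200) and Uqcrb (1104) stood apart from Cyc1 (56.5), Uqcrfs1 (40.6), Uqcrc2 (31.4) and Uqcrc1 (18.4), with no gene between. The catalytic cytochrome c1 and iron-sulfur subunits were thus in the lower cluster. In the ATP synthase, Usmg5 had 15468, 15677 and 15778 counts, 30.3 times the alpha subunit Atp5a1 of the catalytic part (28.8 to 31.9), and Atp5k (2875 CPM), Atpif1, the inhibitor of the enzyme (2701 CPM), and Atp5l (2433 CPM) followed.

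**Figure D4:**
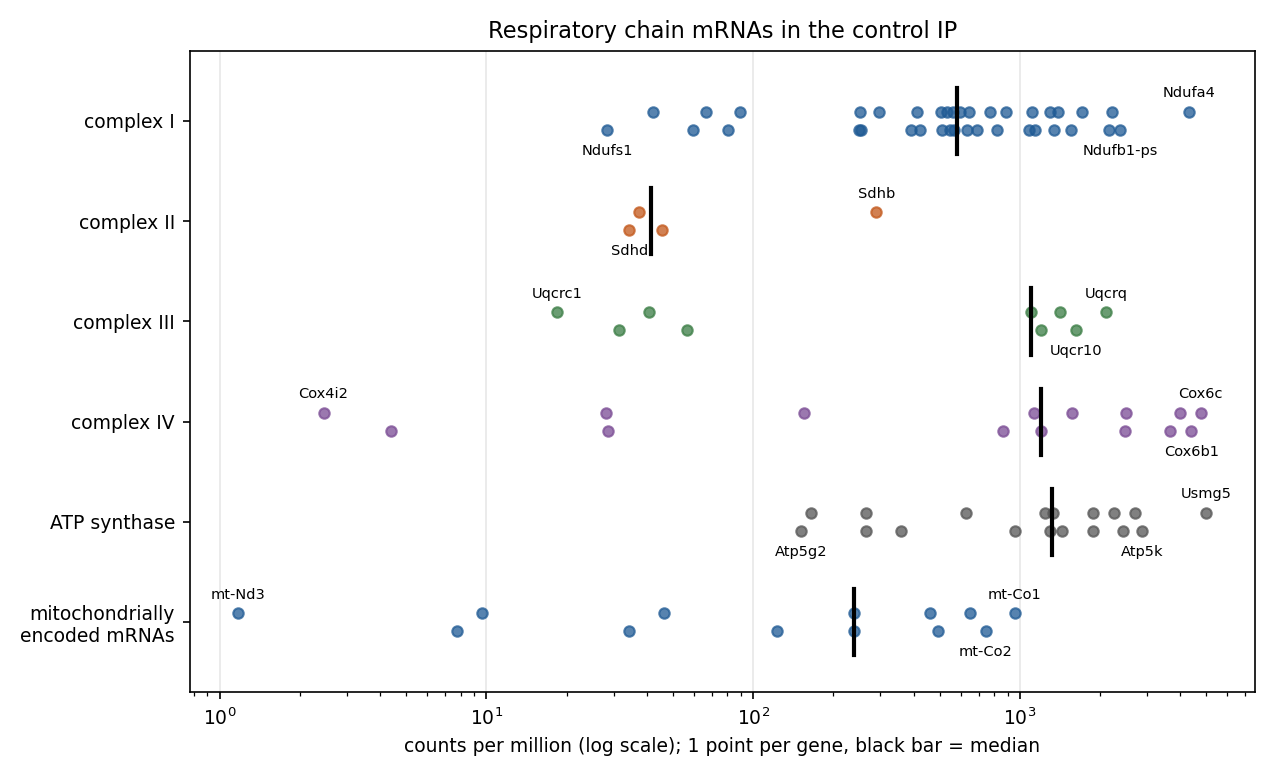
Level of respiratory chain mRNAs by complex in CPM (x axis, log scale), 1 point per gene, with the median as a black bar and the highest and lowest genes named. Complex III splits into 5 genes at 1104 or more and 4 at 56.5 or less, and complex II lies below the medians of the other nuclear groups.

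Where a subunit has alternative isoforms, the widely expressed form carried nearly all counts. Cox4i1 exceeded Cox4i2, an isoform of lung, by 1019-fold (679 to 1607). Cox6a1 exceeded the heart and muscle form Cox6a2 by 258-fold, and Cox7a2 exceeded the heart and muscle form Cox7a1 by 128-fold. The 3 genes for the c-ring of ATP synthase were used unequally, with Atp5g1 at 1.41 times Atp5g3 and 12.4 times Atp5g2.

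The promoters of these genes are shown for 2 members whose windows hold elements known from respiratory chain genes. Each line gives the 250 bases before the listed start on the coding strand of GRCm38.p6, and capitals mark matches to the motifs searched.
Atp5l: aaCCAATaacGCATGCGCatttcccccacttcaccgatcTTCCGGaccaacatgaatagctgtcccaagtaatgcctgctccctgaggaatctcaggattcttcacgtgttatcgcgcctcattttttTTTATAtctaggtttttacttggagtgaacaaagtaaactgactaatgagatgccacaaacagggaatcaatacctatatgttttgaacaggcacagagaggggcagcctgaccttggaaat
Cycs: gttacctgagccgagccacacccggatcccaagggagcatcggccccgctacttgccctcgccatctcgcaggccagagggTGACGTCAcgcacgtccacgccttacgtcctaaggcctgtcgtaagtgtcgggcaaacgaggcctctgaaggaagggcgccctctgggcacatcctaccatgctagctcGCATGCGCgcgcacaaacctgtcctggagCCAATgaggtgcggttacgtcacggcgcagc

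The windows lie at chr9:44920743-44920992 (Atp5l, minus strand) and chr6:50566570-50566819 (Cycs, minus strand). Cycs encodes cytochrome c and had 951 CPM. The letters were searched on both strands. For nuclear respiratory factor 1 (NRF1) they were GCGCATGC. The core of ETS family sites was written as CCGGAA. The CCAAT box and the TATA box (TATAAA) are general promoter elements. Further words were AAGATGGC for the factor YY1 and TGACGTCA for CREB and ATF proteins. The AP-1 site was written as TGACTCA. No word of this list contains another.

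The NRF1 element occurred before 11 of 83 oxidative phosphorylation starts (13.3%) and before none of 64 ribosomal protein starts, beside 2.32% of all genes. In the classes of mRNA rank its share was 5.48% in the first 100, then 6.43%, 5.39% and 4.02%. All 4 classes thus lay above the share of all genes and below that of oxidative phosphorylation. The ETS element occurred in 30.1% of oxidative phosphorylation, 39.1% of ribosomal protein and 12.2% of all windows. Over the ranks of mRNAs it went from 34.2% in the first 100 to 26.5%, 24.5% and 20.4% in the lower classes. Without the ribosomal lists, the share in the first 100 was 28.9% of 38 windows. The CCAAT box showed no such order, with 32.9%, 37.8%, 36.6% and 36.5%, beside 34.5% of all genes. The TATA box stood in 9.59%, 7.93%, 5.79% and 6.28% of the classes and in 12.97% of all genes. The median G and C content was 55.6%, 58.8%, 60.8% and 60.0% in the classes, beside 52.0% over all genes, so the windows of genes read here differ from those of all genes in base composition too. A match describes letters in a window, not a bound site.

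From the mitochondrial genome itself came 0.710% of the counts. Its mRNAs ranged from mt-Co1 with 2953, 2981 and 3045 counts (957 CPM), through mt-Co2 (744), mt-Co3 (651), mt-Atp6 (494) and mt-Nd1 (461), down to mt-Nd3 with 1.17 CPM. These encode core subunits and are translated on mitochondrial ribosomes, which lack Rpl22. The tRNA entry mt-Ts1 had 1221 CPM, 1.28 times mt-Co1, and mt-Tq had 514 CPM, whereas the next tRNA entry mt-Te had 43.8 CPM. Of the ribosomal RNAs mt-Rnr2 had 917 CPM, 2.67 times mt-Rnr1.

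Other energy metabolism was modest beside the respiratory chain. The 20 glycolysis genes held 0.397%, with Gapdh at 4420, 4428 and 4440 counts (1416 CPM), Aldoa at 694 CPM, Pkm at 334 CPM and Tpi1 at 273 CPM. The citric acid cycle and malate shuttle held 0.137% in 21 genes, led by Suclg1 (251 CPM) and Mdh2 (223 CPM). The list of mitochondrial carriers and import genes held 0.691%, with the import genes Tomm7 (1362 CPM) and Timm13 (858 CPM) in front. The 20 genes of the vacuolar ATPase, the proton pump of lysosomes and synaptic vesicles, held 0.389%, with Atp6v1f (907 CPM) and Atp6v0c (776 CPM) highest.

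The actin cytoskeleton was the next list by size. It held 2.15%, mostly through the monomer-binding thymosins: Tmsb10 had 19906, 20298 and 19791 counts, 1.25 times Tmsb4x (1.24 to 1.27). Myl6, a myosin light chain (2520 CPM), and Cfl1, the filament-severing cofilin (1796 CPM), followed, ahead of actin itself, with Actb at 813 CPM and 2.40 times Actg1. Microtubule regulators held 0.915%. Stmn2, a stathmin of neuronal growth cones, had 7042, 7065 and 7008 counts (2251 CPM), 1.54 times Stmn3 and 3.84 times Stmn1. Tppp3 (955 CPM) and Map1lc3b (823 CPM) came next in that list.

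Tubulins held 0.756% and were dominated by neuronal and neuron-rich isotypes. Tuba1a, the main alpha-tubulin of postmitotic neurons, had 8295, 8468 and 8374 counts (2679 CPM), which was 73.5% of the alpha-tubulin counts and 3.12 times Tuba1b. Beta-tubulin was divided more evenly: Tubb3, the neuronal isotype, had 1384 CPM and 35.7% of the beta counts, followed by Tubb2a (780), Tubb5 (600) and Tubb2b (549). Among intermediate filaments, which held 0.218%, the neurofilament light chain Nefl had 2272, 2322 and 2265 counts (731 CPM). Peripherin (Prph), typical of small and injured sensory neurons, had 628 CPM, Nefm 436 CPM and Nefh 163 CPM. Nefl exceeded Nefh 4.49-fold (4.25 to 4.75) and Prph 1.16-fold (1.12 to 1.21). The lamins Lmna (148 CPM), Lmnb1 (3.62) and Lmnb2 (0.959) and the filament genes Nes (37.9) and Ina (28.8) lay below.

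Motor proteins held 0.478% in 51 genes. The dynein light chain Dynlrb1 had 3332, 3348 and 3230 counts (1056 CPM) and Dynll1 589 CPM, while the dynein heavy chain Dync1h1 was 18.3 times lower than Dynlrb1. Of the kinesin heavy chains, the axonal motors Kif1a (98.4 CPM), Kif5b (97.4), Kif5c (92.0) and Kif5a (72.5) were close to each other, and the ratio of Kif1a to Kif5b was 1.01 with an interval of 0.921 to 1.11. Kif22, a kinesin of mitosis, had 786 CPM and 54.5% of the heavy-chain counts.

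Growth and injury genes were present at widely different levels. Lgals1 made up most of the 1.53% held by 33 regeneration-associated effectors. After it came Anxa2 with 3303, 3223 and 3193 counts (1036 CPM), Lgals3 (651 CPM) and Crip1 (564 CPM). Sprr1a, an epidermal protein that injured neurons switch on, had 1186, 1199 and 1235 counts (386 CPM), and Gap43, the growth-cone protein, had 335 CPM, with a ratio of Gap43 to Sprr1a of 0.867 (0.827 to 0.910). Gap43 was placed in the actin list, so it is not part of the share or the median of the effectors. The 36 transcription factors of this program held 0.114%. Ddit3 led them with 207 CPM, ahead of Atf3 with 463, 446 and 457 counts (146 CPM), Atf4 (124 CPM), Stat3 (88.9 CPM) and Jun with 231, 231 and 229 counts (73.7 CPM). Sox11, a developmental factor that injury brings back, had 21.4 CPM, 6.80 times less than Atf3. The effectors thus lay well above the factors in reads, with medians of 54.9 and 14.3 CPM.

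The list of S100 proteins and annexins held 1.74%. S100a10 had 23414, 23583 and 23368 counts and made up 45.5% of the S100 counts, 7.24 times the counts of its partner Anxa2 (7.09 to 7.40). S100a6 (4308 CPM), S100a11 (2115) and S100a13 (1810) came next, and S100a9, a leukocyte protein, had 0.640 CPM. Anxa2, the highest annexin with 1036 CPM, was placed in the list of regeneration-associated effectors and is not part of the 1.74%. Of the other annexins, Anxa5, which binds phosphatidylserine, was highest with 474 CPM.

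Iron, redox and metal-binding genes held 1.77%. The ferritin heavy chain Fth1 had 8067, 8053 and 7992 counts (2570 CPM), 1.505 times the light chain Ftl1 (1708 CPM), and thioredoxin (Txn1) had 2446 CPM. Gstp1, a glutathione transferase, had 1198 CPM. The 3 metallothioneins Mt1 (1018 CPM), Mt3 (818) and Mt2 (584) were all in the upper ranks, including Mt3, the form known from neurons.

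Protein folding and turnover took a further share. The heat shock, cyclophilin and chaperonin list held 1.96% in 97 genes, with Hspa8 at 14676, 14675 and 14762 counts, 28.03 times Hspa5, its relative of the endoplasmic reticulum. Ppia (2514 CPM), Dnajb14 (1216 CPM) and Cryab, a small heat shock protein (1166 CPM), followed. The 8 subunits of the CCT chaperonin, which folds actin and tubulin, lay within a narrow band from Tcp1 (135 CPM) to Cct4 (50.2 CPM), a coefficient of variation of 32.9%. The regulatory ATPases of the proteasome were similarly even, at 36.4%, from Psmc5 (189 CPM) to Psmc6 (72.8 CPM). Other parts of the proteasome ranged more widely. Core beta subunits ran from Psmb6 (1026 CPM) to Psmb4 (153) and core alpha subunits from Psma7 (657) to Psma1 (89.9). The regulatory subunits that are not ATPases ran from Psmd4 (156) to Psmd5 (18.1). The chaperonin and the regulatory ATPases contrast with the complex I list (98.8%, Ndufa4 included) and the ribosomal lists in how far members differ.

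The proteasome as a whole held 0.793% in 47 genes. Psmb6, a catalytic beta subunit, had 3153, 3260 and 3213 counts (1026 CPM) and Psmb1 850 CPM, and core beta subunits held 0.366% against 0.204% for core alpha subunits, of which Psma7 was highest (657 CPM). Immunoproteasome subunits were low, with Psmb10 at 78.4 CPM and Psmb9 at 4.69 CPM, 219 times below Psmb6. The ubiquitin list held 2.02%. Its first gene was Uchl1, a deubiquitinase that is among the most abundant neuronal proteins, with 10276, 10199 and 10327 counts (3283 CPM), before Elob (3043), Cops9 (1930) and Ubb, a polyubiquitin gene (1873).

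The secretory and neuronal membrane systems were spread over many genes of lower level. The endoplasmic reticulum list held 1.12%, with Sec61g of the translocon (1994 CPM), Rpn2 (1097) and Dad1 (706), both of the oligosaccharyl transferase, and Srp14 of the signal recognition particle (691) in front. Lysosomal genes held 0.469%, led by the tetraspanin Cd63 (1366 CPM) and the proteases Ctsl (834), Ctsd (772) and Ctsb (690). Lipid genes held 0.678%, most of it in Dbi, an acyl-CoA binding protein, with 11805, 11734 and 11756 counts (3762 CPM), before Fabp3 (813 CPM). The list of Rab, Arl and other small GTPase symbols held 0.395% in 98 entries with a median of 17.2 CPM, which include proteins that bind these GTPases and antisense RNAs such as Rab26os. Their highest entries were Arl5c (711 CPM), Ran (335), Cdc42 (301) and Arl2 (211).

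The synaptic list held 0.620%, and most of that was a single gene. Gamma-synuclein (Sncg), typical of peripheral sensory neurons, had 11516, 11082 and 11375 counts (3621 CPM). The next genes were Ap2m1 (272 CPM) and Syt4 (256 CPM), and of the release machinery Vamp2 had 131 CPM and 2.15 times Snap25. The calcium sensor Syt1 had 7.14 CPM. The genes of vesicle release were thus read far less than Sncg.

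Neuropeptides and granins held 0.348% in 29 genes, and a pair of injury-induced peptides led them. Galanin (Gal) had 2485, 2400 and 2405 counts (777 CPM, 759 to 795), 1.497 times Calca, which encodes CGRP (519 CPM). Neuropeptide Y (Npy), which large sensory neurons make after axotomy, had 1981, 1922 and 1784 counts (606 CPM), 1.17 times Calca. Vgf, a granin-like precursor, had 282 CPM. Calca exceeded Calcb 5.01-fold and the substance P precursor Tac1 35.5-fold (29.99 to 42.4).

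Channels and receptors, which define how sensory neurons respond, took little of the pulldown. The 132 entries of the ion channel list held 0.140% with a median of 3.36 CPM, below the 5.86 CPM of all genes. Among them are the long non-coding RNAs Kcnq1ot1 and Chrna1os and accessory proteins such as Trpc4ap. The highest were Chrna1 (105 CPM), a muscle-type acetylcholine receptor subunit, Grina (103 CPM), and the mitochondrial porins Vdac3 (86.9) and Vdac2 (86.8), so none of the first 4 is a nociceptor channel. Of the sodium channels, Scn10a, the nociceptor channel Nav1.8, had 88, 72 and 92 counts (26.9 CPM), 2.29 times Scn9a (1.82 to 2.89). Trpv2 had 34.4 CPM, Trpv1, the capsaicin receptor, 17, 31 and 23 counts (7.57 CPM), and Trpa1 0, 1 and 1 counts, which is under the level of 3 counts. P2rx4 had 57.2 CPM and P2rx3 17.3 CPM.

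The list of surface receptor and adhesion genes held 0.137% in 44 genes. Thy1 (284 CPM) and the GDNF family receptor Ret (166 CPM) were highest, before Apoe (109) and App (108). Apoe is a secreted apolipoprotein, which this list held in place of the lipid list. Ret had 499, 521 and 534 counts. The sodium pump list held 0.167% in 12 genes. Its first member was Fxyd2, a small regulator of the pump found in sensory neurons, with 3049, 3101 and 3000 counts (975 CPM). Fxyd5 (178), Fxyd1 (79.8), Fxyd7 (78.6), Atp1b1 (58.3), Atp1b3 (43.0), Fxyd3 (30.9), Fxyd6 (14.4) and Atp1b2 (2.03) lay below it.

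Nuclear functions made a modest contribution. The RNA-binding list of 221 genes held 1.06% with a median of 16.5 CPM, and its top was made of Sm and LSm proteins of the spliceosome: Snrpe (974 CPM), Snrpg (903), Snrpd2 (754) and Lsm7 (513). Histones and chromatin proteins held 0.359% in 128 genes, led by the histone variant H2afz (680 CPM), and the transcription list 0.602%, led by the polymerase subunit Polr2l (663). Signalling genes held 1.46% in 192 genes, with the nucleoside diphosphate kinases Nme2 (2245 CPM) and Nme1 (1059), Hint1 (1891) and the G protein subunit Gng3 (759) at the top. The 331 zinc finger entries held 0.523% with a median of 2.34 CPM. A single member, Zfp410, had 2497 CPM, and the next, Zfp626, had 349 CPM.

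The cell identity of the pulldown was read from marker lists. All 22 pan-neuronal markers had counts, which says little, since 15320 of the 15391 genes in the table had one. The markers summed to 14988 CPM (14879 to 15147 over the columns). Their median was 139 CPM, beside 5.86 CPM over all genes. Sncg, Uchl1 and Stmn2 made up most of the sum. Avil, whose promoter drives Cre, had 263, 250 and 248 counts (81.1 CPM), and the transcription factors Pou4f1 (19.7 CPM) and Isl1 (9.17 CPM) were present at low level. Markers of sensory neurons, the labelled source, were thus read at levels from 3621 CPM (Sncg) to 7.14 CPM (Syt1).

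Subtype markers differed in level. The 7 peptidergic markers summed to 1539 CPM, most of it from Gal and Calca, and the 9 listed myelinated markers to 329 CPM, led by Spp1 (182 CPM) and Pvalb (51.6 CPM). The 6 non-peptidergic markers summed to 200 CPM, of which Ret, shared by several types, made up most, while P2rx3 had 17.3 CPM and Gfra2 1.28 CPM. For pruriceptors Nts had 163 CPM and Nppb 44, 42 and 41 counts (13.5 CPM), but Sst had 0.746 CPM and Il31ra 1.17 CPM. The 4 markers of cold-sensing and C-fibre low-threshold neurons summed to 12.5 CPM, with tyrosine hydroxylase (Th) at 1.92 CPM. The highest of these was Fam19a4, also named Tafa4, with 7.78 CPM. Mrgprd, Lpar3, Mrgpra3, Necab2, Trpm8 and Foxp2 were not among the genes of the table and are not analysed here.

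**Figure D5:**
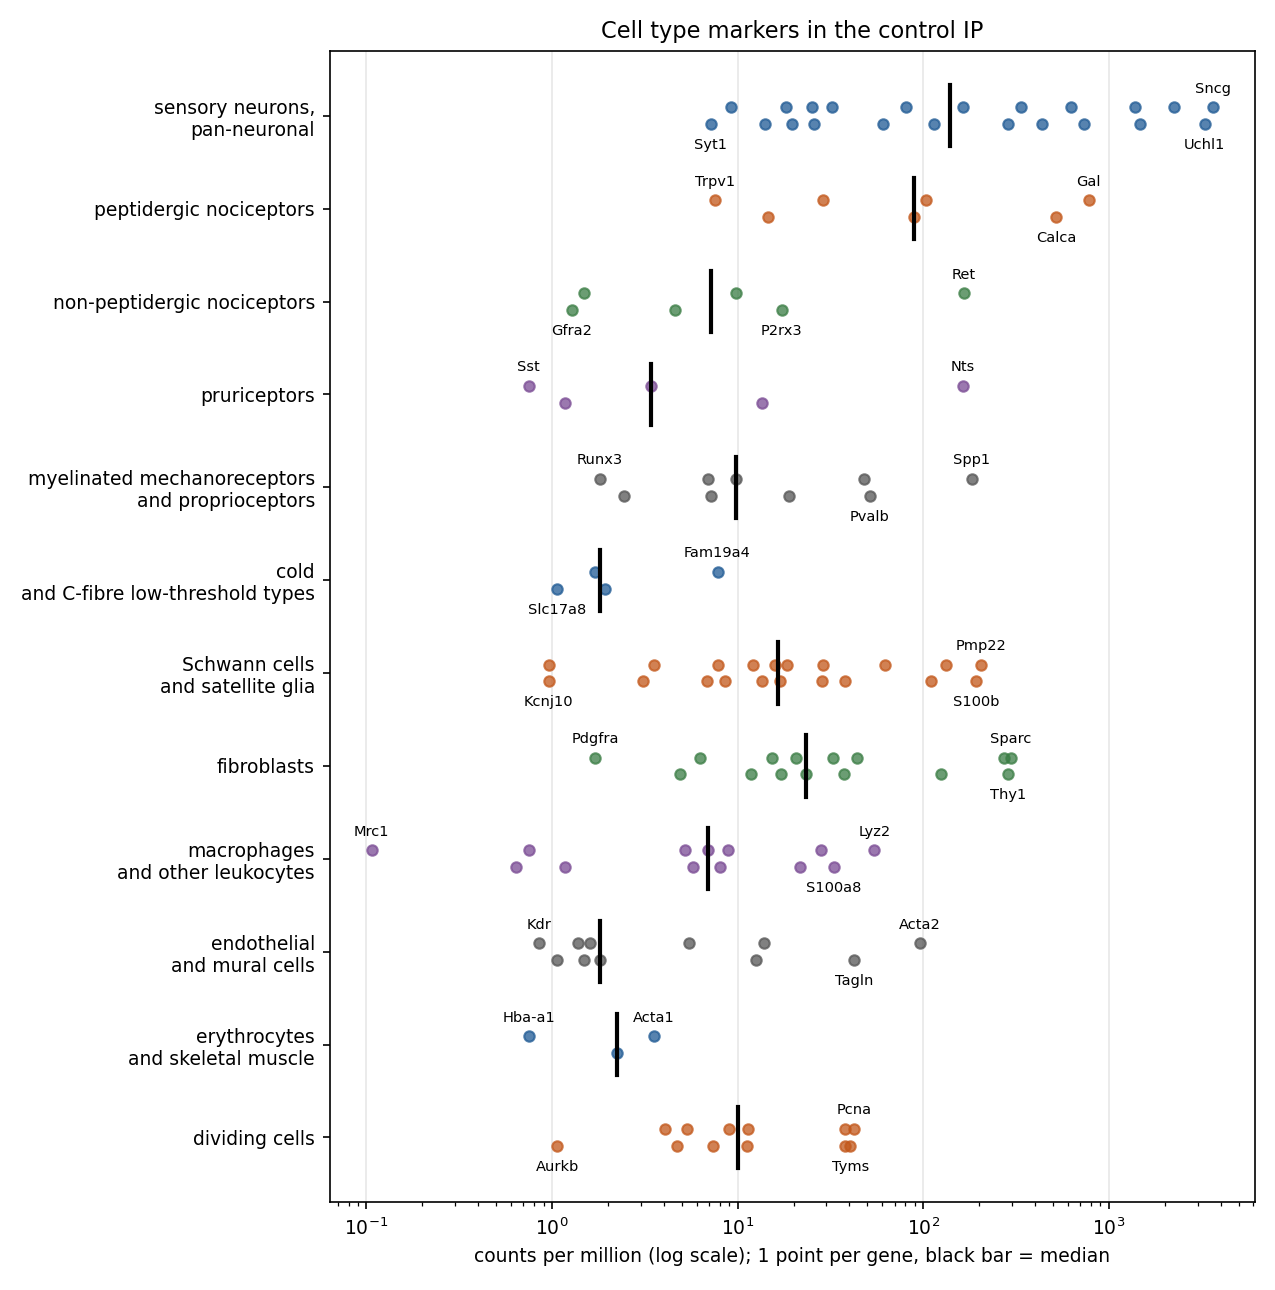
Level of cell type markers in CPM (x axis, log scale), 1 point per gene with a count, by marker list (y axis), with the median as a black bar and a few genes named. Pan-neuronal markers reach 3621 (Sncg), while the highest glial marker is Pmp22 at 205 and the highest leukocyte marker Lyz2 at 54.5.

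Markers of other cells were present as well. The 20 markers of Schwann cells and satellite glia summed to 905 CPM (902 to 911 over the columns), with Pmp22 (205 CPM), S100b (192), Fabp7 (133) and Apoe (109) highest. Sox10, a transcription factor of glia, had 16.9 CPM. Fibroblast markers summed to 1191 CPM in 15 genes, led by Sparc (296), Thy1 (284) and Mgp (270), and Thy1 is also a marker of neurons. Col1a1 had 23.2 CPM. Leukocyte markers summed to 174 CPM in 13 genes, with Lyz2 highest, and endothelial and mural markers to 179 CPM in 11 genes, with Acta2 at 96.1 CPM. The 12 markers of dividing cells summed to 213 CPM, and Mki67 had 33, 39 and 33 counts (11.2 CPM). The 3 erythrocyte and muscle markers in the table summed to 6.502 CPM. Whether this RNA was on tagged ribosomes or carried along in the pulldown was not tested.

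Among the upper ranks were genes known mainly from other tissues or from general nuclear functions, and others of general function such as Arcn1, Usp34 and Srebf2. They were singled out after their values were seen. Gm17494, which has no listed type, and the pseudogene Gm10076 were set aside with them, not as genes of a known tissue or function. Unc13d, a release factor of blood cell granules, had 9396, 9524 and 9391 counts (3018 CPM). Nlrc3, an immune regulator, had 2799 CPM, and Ccdc62, known from the testis, had 2603 CPM. The pluripotency factor Nanog had 4843, 4776 and 4715 counts (1528 CPM), above Tubb3. The transcription genes Zfp410 (2497 CPM), Brd8 (2390) and Ttf1 (2038) and the coat protein gene Arcn1 (1573) belonged to the same upper ranks, and Kif22 was set aside with them. In total the 28 genes set aside in this way, a mixed set that also includes Wdr89, held 6.13% of the counts. That share is thus not a measure of genes of other tissues. By the ratio of the highest to the lowest column Chrna1 was the most uneven of them, with 363, 278 and 342 counts.

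Some olfactory and vomeronasal receptor genes were part of that set. The 75 genes of their list held 0.384% of the counts with a median of 1.28 CPM, so the share came from a handful: Olfr655 with 3354, 3480 and 3401 counts (1091 CPM), Olfr1423 (893 CPM), Olfr373 (649 CPM), Olfr889 (593 CPM) and Vmn2r63 (286 CPM). The sixth, Vmn2r10, had 84.0 CPM. Olfr655 alone was read more often than Gap43 and Atf3. From which transcripts the reads of these genes came was not tested.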

How the data were processed

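RNA of 3 control-virus IP columns was analysed, out of 12 in the series. The authors deposited estimated counts per gene as whole numbers. Per the labels' protocols, a cDNA-PCR barcoding kit for nanopore sequencing was used, and the submitters' processing notes name minimap2, Salmon, GRCm39 and mm39. Their versions, the annotation and the use of strand are not stated in these sources. Symbols were matched by identifier (13711 genes; 1680 had none). Gene types, neighbours and starts came from RefSeq tables of GRCm38.p6, matched by symbol.

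The columns were summed and scaled to 1000000, with exact 95% intervals from scipy 1.17.1 under Python 3.11.15, and figures from matplotlib 3.10.9. Each gene went to the first of 41 function lists that held it; 12 marker lists may overlap them. The members and lists were chosen with earlier results of these data known. Named genes are the top 30, up to 4 of each list (all of lists of up to 12 genes), the lowest of complexes, and the 5 highest of each RNA type. Subunit groups, isoform pairs, other genes with values and the Hsp90 members of the chaperone list were added after values were seen. Alternatives used edgeR 4.0.16 and DESeq2 1.42.0 factors in R 4.3.3 for scaling alone, and the scripts were tested on simulated data. No test between groups was made. Some genes that these rules name are not reported here.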

Additional observations from a re-analysis of the deposited data

How the results depend on the processing

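The profile changed little under the processing choices tried, most of which could hardly move it. The columns differed by about the sampling noise, and the scaling factors lay between 0.999 and 1.003. How reads are shared between like genes, and which genes each list holds, were not varied. The number of genes that hold 50% of the counts was 193 and went from 192 to 193 when each column was left out in turn, was 193 with TMM or DESeq2 factors, 189 without genes of the mitochondrial genome and 192 with only genes of at least 10 summed counts. Without the mitochondrial genome the denominator shrinks by construction, and the shares were 36.97% for the top 100 genes (36.71% in the report's setting), 83.7% for protein-coding genes, 8.67% for genes without a symbol, 21.3% for ribosomal proteins and 10.2% for oxidative phosphorylation. With at least 10 counts the top 100 held 36.74%. The share of ribosomal protein starts with the tract went from 21.9% to 46.9% when it could begin within 5 bases of the start. These 7 values moved by more than counting error or by the choice itself, and the other 36 did not. Division by length was planned and not run, since no lengths of transcripts or proteins were in the reference used here. No paired analysis was possible because 1 group was described by itself and no test was made. Limits: n = 1, counting error only, no length scaling, and reads of like or overlapping genes are not separated. Levels under 0.320 CPM, 3 counts, were not resolved.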
